A study of Mus musculus with 3 samples.

Results

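The p53 and integrated stress response genes described here are 10 mouse genes, taken by name: Trp53, Mdm2, Cdkn1a and Gadd45a of the p53 pathway, and Atf4, Ddit3, Atf3, Trib3, Asns and Nupr1 of the stress response. They were measured by 13 probes, of 28578 genes with a name on the array. Every probe carrying 1 of these gene names was used, with 1 probe for each of 7 genes and 2 probes each for Trp53, Mdm2 and Trib3. All 10 genes were well above background on every array, meaning that the scanner software judged their signal clearly brighter than the background, so none was lost to a filter on dim signals.

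The RNA came from E14.1, a line of mouse embryonic stem (ES) cells, at 3 time points of a differentiation towards liver, with 1 Cy3-labelled Agilent array for each. All cells were grown without serum in N2/B27 medium. At day 0 the ES cells were on gelatin with LIF at 1000 U/ml and BMP4 at 10 ng/ml, factors that hold them undifferentiated. At day 5 they had been moved to collagen IV, with activin A at 30 ng/ml in place of both factors, and are labelled definitive endoderm. At day 7 they had spent 2 more days with BMP4 at 30 ng/ml and basic FGF at 10 ng/ml beside activin A at 30 ng/ml, and are labelled early hepatic cells. The study set out to follow gene expression around Foxa2, an endoderm transcription factor, through this differentiation. With 1 array for each day, the effects of time and of the added factors cannot be told apart, no test between days was possible, and each difference given here is between 2 arrays with no measure of variation between cultures.

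The p53 protein, encoded by Trp53, is a transcription factor that is held at a low level by the ubiquitin ligase MDM2 and accumulates after DNA damage, when it switches on genes for cell cycle arrest, repair and cell death. In the integrated stress response, kinases that sense amino acid shortage, unfolded protein, double-stranded RNA or haem shortage phosphorylate the initiation factor eIF2alpha, which lowers translation in general while favouring that of ATF4. ATF4 then binds C/EBP-ATF composite elements in genes for amino acid supply and in those of its partners and successors CHOP, ATF3, TRIB3 and NUPR1. Both pathways are largely controlled at the level of protein, which these arrays do not measure.

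The short windows printed next show where the C/EBP-ATF core motif stands near the starts of the stress response genes, because ATF4 is known to act on these genes through such elements. Promoters were RefSeq windows of the GRCm38.p6 build, from 250 bases before to 50 bases after a gene's start, read on the gene's strand. All 10 genes matched the table, with 11 windows, since Cdkn1a has 2 starts that lie 2790 bases apart. The core was searched as TGATGNAA on both strands and stands in capitals, in either orientation. It occurred in 3.97% of all 32851 windows and in those of 4 of the 10 genes, Atf3, Trib3, Asns and Nupr1.
Atf3, chr1:191183425-191183454, minus strand: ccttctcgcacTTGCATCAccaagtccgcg
Trib3, chr2:152344028-152344057, minus strand: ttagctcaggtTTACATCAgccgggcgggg
Asns, chr6:7693214-7693243, minus strand: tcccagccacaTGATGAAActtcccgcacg
Nupr1, chr7:126625562-126625591, minus strand: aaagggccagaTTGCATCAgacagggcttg

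The matches began at -110 in Atf3, -23 in Asns and -110 in Nupr1, counted from the gene's start, and at 15 after the start in Trib3. Atf3 also held a CRE-like match (TGACGTNA, either strand, in 2.93% of all windows) beginning at -10, shown because ATF3 and ATF4 belong to the family that binds such elements. An AP-1 match (TGAGTCA, either strand, in 5.2% of all windows) was found in Ddit3 alone of the 10. The ER stress element (CCAAT and CCACG with any 9 bases between them, either strand, in 0.119% of all windows) was found in none of them.
Atf3, chr1:191183325-191183354, minus strand: tattaatagcaTTACGTCAgcctgggattg

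For the p53 group, the p53 half-site, a decamer matched by its consensus on both strands, occurred in 8.36% of all windows and in those of Trp53, Mdm2, Gadd45a and Cdkn1a. A pair of half-sites separated by at most 13 bases occurred in 0.0731% of windows, and among the 10 genes only in the window of the upstream start of Cdkn1a. It is printed here because Cdkn1a is the p53 target that differed from the other genes of its group in direction. Its half-sites stand in capitals with 12 bases between them. The search allowed no mismatch, so a decamer departing from the consensus in any letter was not counted. The bases straight after the second half-site, printed here only in part, hold such a near match with no spacer.
Cdkn1a, chr17:29090901-29090942, plus strand: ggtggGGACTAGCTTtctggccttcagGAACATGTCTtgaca

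No match of one motif overlapped a match of another in these 10 genes. A match is a description of letters in a window, neither a site shown to be bound nor a cause of what follows, and a window without one says nothing of the factor.

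Values are log2 of the processed signal minus the log2 of that array's 75th percentile, so that 0 is the level of the 75th percentile spot, and the level of one probe cannot be set against that of another. The arrays were alike in quality: each held 43379 gene spots, from 70.9% to 71.7% of them were well above background, none was saturated, and probes printed 10 times had a median spot SD between 0.076 and 0.080 on the log2 scale. That SD is technical and within an array. Here higher or lower, as a call, means a difference of at least 2-fold, 1 on the log2 scale. The median of genes well above background on both arrays differed by -0.13 for day 5 minus day 0, -0.20 for day 7 minus day 0 and -0.09 for day 7 minus day 5, so values near these sizes are those of a typical gene.

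The labelled cell types were checked with 5 markers each, as summed levels in units of the array's 75th percentile. ES cell markers (Pou5f1, Nanog, Sox2, Zfp42 and Esrrb) summed to 160 at day 0, 7.00 at day 5 and 1.90 at day 7. Definitive endoderm markers (Foxa2, Sox17, Cxcr4, Gsc and Cer1) summed to 0.313, 131 and 35.9 on these days. Early hepatic markers (Afp, Alb, Ttr, Hnf4a and Apoa1) summed to 0.100, 1.01 and 18.4, and Alb, the mature liver product albumin, was not well above background at day 7. Markers of other cells moved too: extraembryonic endoderm markers summed to 29.6, 5.77 and 63.1, mesenchyme markers to 2.51, 0.598 and 14.2, and cardiac mesoderm markers to 5.82, 29.4 and 8.33. Such sums add probes whose levels are not on 1 scale, and single genes carry some of them. Zfp42 made up 62.9% of the ES cell sum at day 0 and Afp 77.3% of the early hepatic sum at day 7. Rhox5 made up 96.1% of the extraembryonic sum at day 0 and Myl7 98.6% of the cardiac sum at day 5. Counted by gene, 4 of the 5 extraembryonic, 4 of the 5 mesenchyme and 4 of the 5 cardiac markers were highest at day 7. The exceptions were Rhox5 and Thy1, highest at day 0, and Myl7, highest at day 5. Their part in the results was not tested, and in such bulk RNA fewer cells of a type and less RNA per cell cannot be told apart.

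Of the 10 genes, 9 had a level below that of day 0 at day 5, where 55% of all genes compared did. At day 7, 8 did, where 57.3% of all genes did. Not all of these differences passed 2-fold. At day 5 against day 0, 6 of the 10 were at least 2-fold lower (Trp53, Gadd45a, Ddit3, Trib3, Asns and Nupr1), where 16.1% of the 21653 genes compared were lower. Cdkn1a alone was at least 2-fold higher, where 16.5% of all genes were higher. At day 7 against day 0, 4 were lower (Gadd45a, Trib3, Asns and Nupr1), against 19.1% of all genes, and 2 were higher (Cdkn1a and Atf3), against 16.2%. The median difference of the 10 genes was -1.36 for day 5 minus day 0 and -0.93 for day 7 minus day 0. The day 0 array is common to both comparisons, so they are not separate evidence. The 10 genes were chosen with earlier results of these data known, so the shares of all genes are a background and not a test.

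Between day 5 and day 7 fewer calls were made than from day 0, among the 10 genes as among all genes. At day 7 against day 5, Atf3 alone was at least 2-fold higher, where 5.97% of all genes were higher, and Nupr1 alone was at least 2-fold lower, where 8.38% were lower. The other 8 genes differed by less than 2-fold, and the median of the 10 was 0.20.

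**Figure D1:**
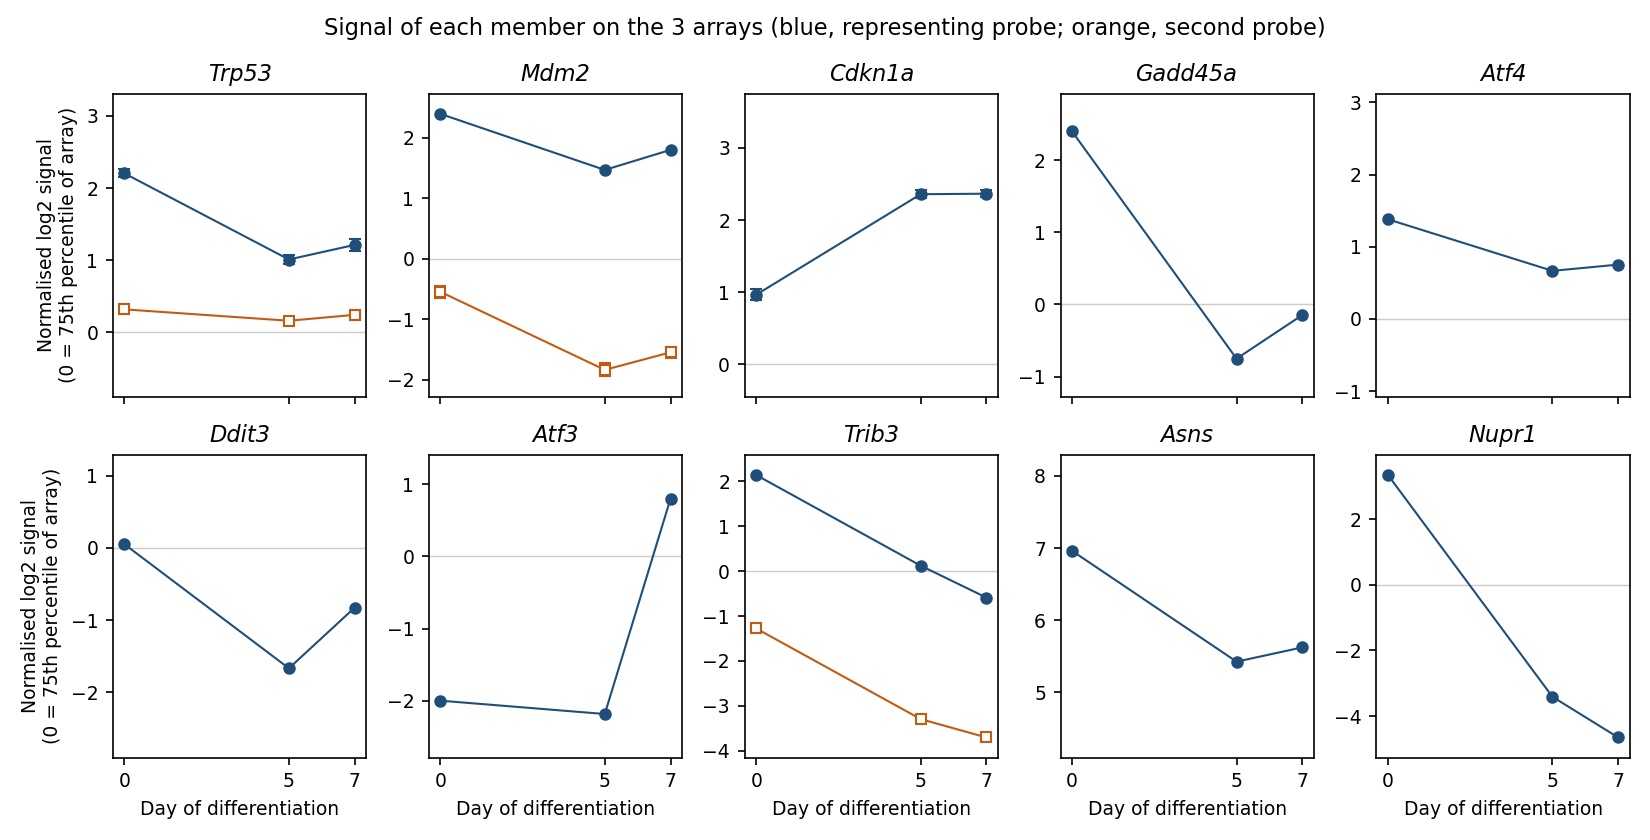
Normalised log2 signal (vertical axis, 0 is the array's 75th percentile) of each of the 10 genes against the day of differentiation (horizontal axis), 1 array per day; every panel has its own vertical position. Blue circles are the probe used for the gene and orange squares its second probe, with bars for the SD over the 10 spots of probes printed 10 times; Gadd45a stands at 2.40 at day 0 and -0.75 at day 5, while Atf3 stays near -2 until day 5 and stands at 0.80 at day 7.

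Trp53, the gene of p53 itself, gave a log2 level of 2.20 ± 0.055 at day 0, 1.01 ± 0.064 at day 5 and 1.21 ± 0.079 at day 7 (SD over 10 spots of 1 array). Day 0 was the highest and the spots of day 0 did not overlap those of the other days. The difference was -1.19 at day 5 (2.29-fold lower) and -0.99 at day 7 (1.99-fold lower), the latter just short of a call. The second Trp53 probe, 9175 bases away on the chromosome, read 0.32, 0.16 and 0.24 on the 3 days, a difference of only -0.16 at day 5 and -0.08 at day 7. The lower Trp53 signal thus rests on 1 of its 2 probes, and the median over both, -0.68 at day 5, was not a call. The 2 probes lie at chr11:69403134-69403193 and chr11:69393959-69394017 on the plus strand of the mm9 build.

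Mdm2, the ligase that degrades p53 and is itself a p53 target, read 2.39 at day 0, 1.47 at day 5 and 1.80 at day 7 with the probe at chr10:117126278-117126337. Its second probe, 3447 bases away, read -0.55 ± 0.099, -1.84 ± 0.106 and -1.55 ± 0.092 (SD over 10 spots). Both probes were highest at day 0 and lowest at day 5. The first differed by -0.93 at day 5 and -0.60 at day 7, under 2-fold. The second differed by -1.29 at day 5, a 2.45-fold difference, and by -0.9999 at day 7, just short of a call. Mdm2 therefore sits at the threshold: it was a call at day 5 by the second probe, by the median over both (-1.11) and after centring arrays on their median (-1.04), and not by the probe used here.

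Cdkn1a, which encodes the cyclin-dependent kinase inhibitor p21 and is the best known p53 target for cell cycle arrest, went the other way. Its level was 0.97 ± 0.075 at day 0, 2.36 ± 0.055 at day 5 and 2.37 ± 0.051 at day 7 (SD over the 9 or 10 spots kept). The days 5 and 7 differed by 0.01, less than the spot SD, and both stood above every spot of day 0. The difference was 1.39 at day 5 (2.63-fold higher) and 1.40 at day 7 (2.64-fold higher). Its probe lies at chr17:29237377-29237436, plus strand, mm9.

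Gadd45a, which acts in growth arrest and DNA repair and responds both to p53 and to ATF4, read 2.40 at day 0, -0.75 at day 5 and -0.15 at day 7, from 1 spot at chr6:66985376-66985435. It was 8.87-fold lower at day 5 (a difference of -3.15) and 5.83-fold lower at day 7 (-2.54). The processed intensity was 8229 units at day 0, 1217 at day 5 and 1854 at day 7, all far from the background. Gadd45a and Cdkn1a, both p53 targets, thus moved in opposite directions from day 0, and Gadd45a was 0.61 higher at day 7 than at day 5, under 2-fold.

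Atf4, the transcription factor at the centre of the stress response, read 1.38 at day 0, 0.67 at day 5 and 0.75 at day 7. The differences of -0.71 and -0.63 from day 0 stayed under 2-fold. Atf4 was among the least changed of the 10 genes at both days, and its activity is set mainly by translation, which an RNA level does not show. The probe is at chr15:80087079-80087138, plus strand.

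Ddit3, which encodes CHOP, a C/EBP family factor tied to cell death under lasting stress, read 0.05 at day 0, -1.67 at day 5 and -0.83 at day 7. It was 3.29-fold lower at day 5 (-1.72). At day 7 it had come back part of the way, by 0.84 from day 5, and the difference from day 0 was -0.88, under 2-fold. Day 5 was thus the low point of Ddit3, as it was of Trp53, Mdm2, Gadd45a, Atf4 and Asns. None of these 6 differed by 2-fold between days 5 and 7, and Atf4 differed by only 0.09. Atf3 was lowest at day 5 too, though its difference from day 0 was only -0.18. The Ddit3 probe spans 304 bases of the genome, at chr10:126732518-126732821, so it crosses at least 1 gap in the alignment.

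Atf3, an immediate responder of the ATF family that is induced by many stresses and by p53, had a pattern of its own among the 10. It read -2.0 at day 0, -2.18 at day 5 and 0.80 at day 7, from 1 spot at chr1:192994547-192994606, minus strand. Days 0 and 5 differed by -0.18, close to the median gene, and day 7 was 6.97-fold above day 0 (2.80) and 7.92-fold above day 5 (2.99). The processed intensity was 391 units at day 0, 451 at day 5 and 3578 at day 7. Its difference from day 5 to day 7 ranked 204 from the top among 21653 genes. As given above, 4 of 5 markers each of extraembryonic endoderm, mesenchyme and cardiac mesoderm, and 4 of 5 early hepatic markers, were also highest at day 7; their part in this difference was not tested.

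Trib3, a pseudokinase induced by ATF4 and CHOP that restrains both, was lower at each step. The probe at chr2:152163355-152163414 read 2.14 at day 0, 0.12 at day 5 and -0.59 at day 7. The second probe, 670 bases away, read -1.28, -3.29 and -3.70. Both probes gave a difference of -2.02 at day 5 (4.05-fold lower), and they gave -2.73 and -2.43 at day 7 (6.63-fold and 5.38-fold lower). With Trib3 the 2 probes therefore told the same story, unlike with Trp53.

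Asns, the asparagine synthetase that makes asparagine from aspartate and is a textbook ATF4 target, read 6.96 at day 0, 5.43 at day 5 and 5.63 at day 7. It was 2.90-fold lower at day 5 (-1.54) and 2.53-fold lower at day 7 (-1.34). Its spot at chr6:7625194-7625253 was very bright on every array and saturated on none. After quantile normalization and in the authors' deposited value table the difference at day 7 was -0.93, which is not a call. At day 5 the difference was a call under all 8 alternatives in processing, some of which could not alter it, though short of 3-fold.

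Nupr1, a small chromatin-associated stress protein induced with ATF4 and CHOP, showed the largest difference of the 10. It read 3.34 at day 0, -3.41 at day 5 and -4.65 at day 7, from 1 spot at chr7:133766978-133767037, minus strand. The processed intensity was 15818 units at day 0, 193 at day 5 and 81.8 at day 7, and the spot was well above background on all 3 arrays. Nupr1 was 108-fold lower at day 5 (-6.75) and 254-fold lower at day 7 (-7.99). Over the alternatives in processing these differences ran from -6.86 to -6.42 at day 5 and from -7.99 to -7.19 at day 7. Counted from the lowest difference, it ranked 11 of 21653 genes at day 5 and 29 at day 7. The further difference of -1.24 from day 5 to day 7 was -0.77 after another background correction (normexp) and then not a call.

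**Figure D2:**
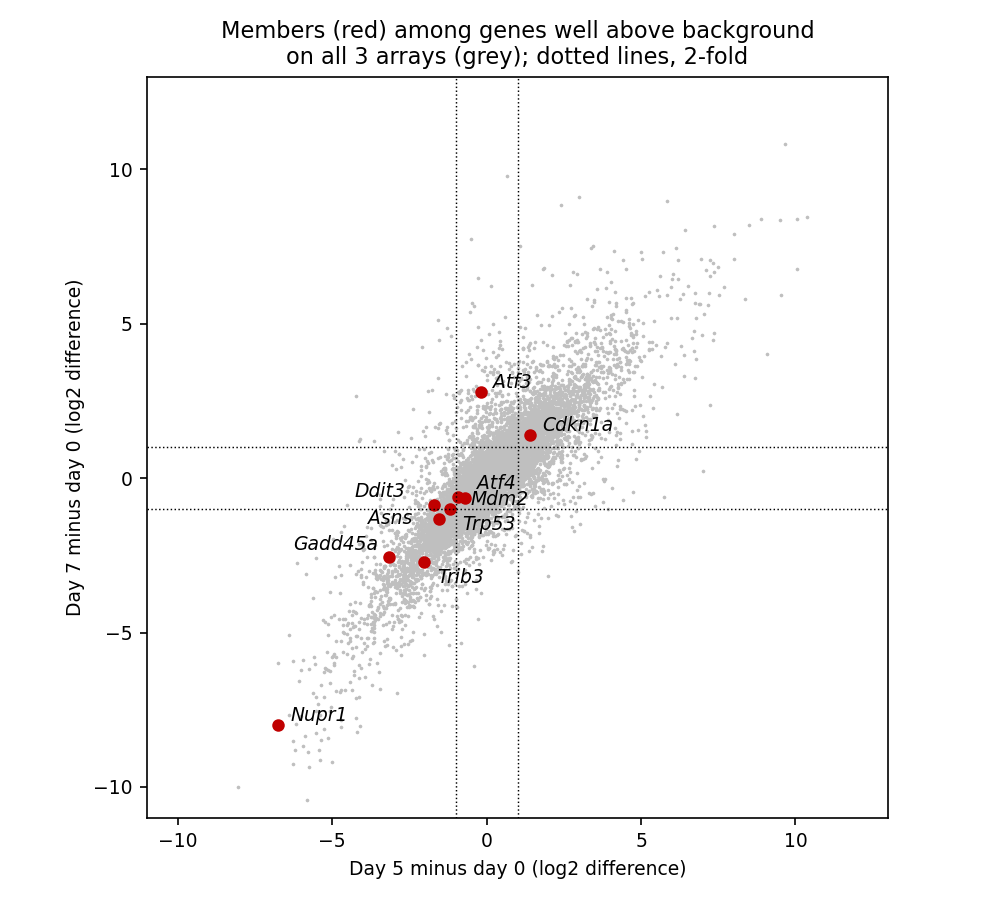
Log2 difference of day 5 minus day 0 (horizontal axis) and of day 7 minus day 0 (vertical axis) for the genes well above background on all 3 arrays, in grey, and for the 10 genes, in red with names; the dotted lines mark 2-fold. Both axes subtract the same day 0 array, so the grey diagonal is partly built in; Nupr1 stands at -6.75 and -7.99, Cdkn1a at 1.39 and 1.40, and Atf3 off the diagonal at -0.18 and 2.80.

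The genes nearest to each of the 10 were sought by distance over the 2 log2 differences from day 0, among 14058 genes with an ordinary symbol well above background on all 3 arrays. This is likeness over 3 arrays alone, and it says nothing of shared function or control. No gene lay within 0.5 of Nupr1; the nearest were Spp1 (osteopontin) at a distance of 0.72, Napsa (an aspartic protease) at 0.80 and Dnmt3l (a partner of the de novo DNA methyltransferases) at 0.96. Spp1 differed by -6.27 and -8.53 at days 5 and 7, and Dnmt3l by -5.87 and -8.36.

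Atf3 had 23 genes within 0.5, and the nearest were Gipc2, Wnt4 (a secreted WNT ligand) and Spns2 (a sphingosine-1-phosphate transporter), at 0.09, 0.15 and 0.17. Gadd45a had 34, led by Ksr1, Pde8a and Nxph3, at 0.03, 0.14 and 0.15. The patterns of the other genes were common. Trib3 had 135 genes within 0.5 (nearest Prkcbp1, Cabp1 and Pde1b), Ddit3 had 206 (Dgkg, Hebp1 and Dst), and Cdkn1a had 580 (Cntln, Dennd2d and Lrrc18). Asns had 716 (Npy, Mta3 and Fpgs) and Trp53 had 1370 (Lsm2, Haus3 and Tbl1xr1). Nupr1 was thus the most isolated of the 8 genes called in any comparison and Trp53 the least.

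The wider pathways were read from 8 lists, with 138 genes in all that are not among the 10. Of these, 13 were at least 2-fold higher and 35 lower at day 5 against day 0, 18 higher and 41 lower at day 7 against day 0, and 11 higher and 5 lower at day 7 against day 5. The shares of all genes given above are the background for each count, and no list was tested.

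**Figure D3:**
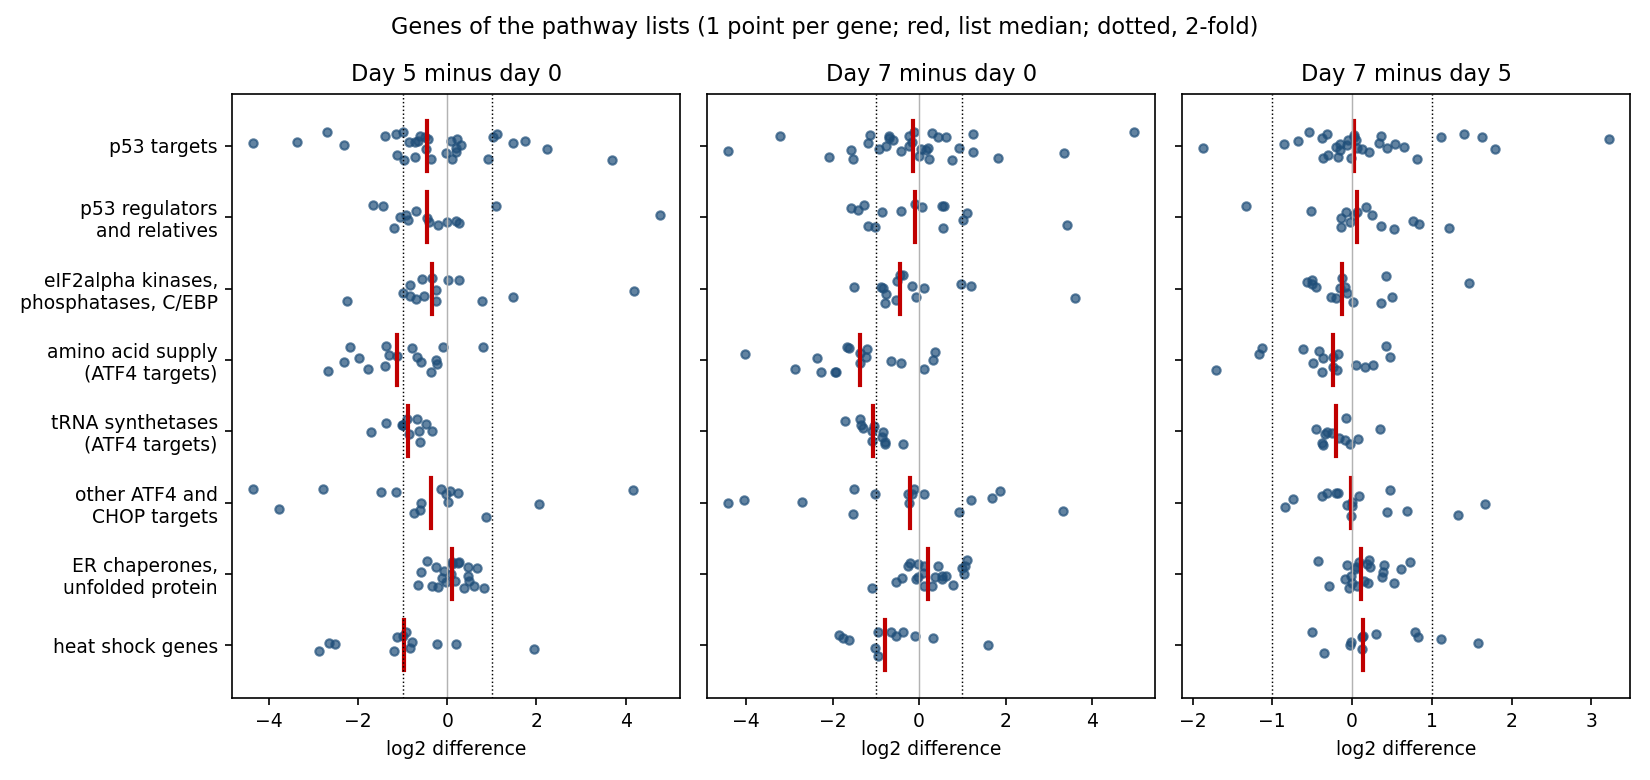
Log2 difference (horizontal axis) of each gene of the 8 pathway lists, 1 point per gene, in the 3 comparisons between days; the vertical red bar is the list's median and the dotted lines mark 2-fold. All 12 tRNA synthetases lie left of 0 in both comparisons with day 0, with medians of -0.87 and -1.07, while the ER chaperones centre near 0 with medians of 0.11 and 0.20.

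Other targets of p53 went both ways, as Cdkn1a and Gadd45a did. Of 32, 6 were higher and 7 lower at day 5 against day 0 (median -0.45), where 16.5% and 16.1% of all genes were. At day 7 against day 0, 5 were higher and 7 lower (median -0.14), where 16.2% and 19.1% were. At day 7 against day 5, 5 were higher and 1 lower (median 0.03), where 5.97% and 8.38% were. Fas, a death receptor, was 3.69 higher at day 5 and 1.82 higher at day 7 than at day 0, the latter 1.01 as the median over its probes. Cd82, a tetraspanin, was 2.24 and 3.35 higher. Gdf15, a stress-induced hormone of the TGF-beta family that also answers to ATF4 and CHOP, was 20.5-fold lower at day 5 (-4.36) and 21.4-fold lower at day 7 (-4.42). Ephx1, an epoxide hydrolase, was lower by 6.43-fold at day 5 and 9.34-fold at day 7. These targets therefore showed no common direction, and calls in both directions were made among all genes too.

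Some values depended on the probe or the processing. Thbs1 (thrombospondin) was 4.98 higher at day 7 than at day 0, or 2.88 with normexp and 2.72 as the median over its probes, and its difference of 1.75 at day 5 was 0.40 and 0.88 under these alternatives. Perp was 1.48 higher at day 5, Apaf1 (the apoptosome scaffold) 1.25 higher and Plk3 -2.07 at day 7, all from day 0. Rrm2b, a p53-induced ribonucleotide reductase subunit, was not well above background at day 5 and at least 5.00-fold lower there than at day 0, a bound that was 2.19-fold with normexp.

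Genes that control p53 fell on both sides too. Of 15 compared, 2 were higher and 4 lower at day 5 against day 0 (median -0.45), where 16.5% and 16.1% of all genes were. At day 7 against day 0, 3 were higher and 5 lower (median -0.09), where 16.2% and 19.1% were. The checkpoint kinases Chek2 and Chek1 were -1.67 and -1.44 at day 5, and -1.42 and -1.26 at day 7. Mdm4, the MDM2 relative that masks p53, was -1.20 and -1.18, and Usp7, which removes ubiquitin from MDM2 and p53, was -1.05 and -1.56. The calls of Chek2 and Chek1 held under the 8 alternatives in processing, though of these only Chek2 at day 5 passed 3-fold. That of Mdm4 at day 7 was lost as the median over its probes (-0.84), and that of Usp7 at day 5 after quantile normalization (-0.73), in the authors' deposited table (-0.72) and as the median over its probes (-0.82).

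Hipk2, a kinase that acts on p53, was 4.76 higher at day 5 and 3.43 higher at day 7 than at day 0, but 1.23 and 0.33 as the median over its probes. Ppm1d, the phosphatase that ends p53 signalling, was 1.11 higher at day 7. Rfwd2 (COP1), another ligase for p53, was 1.09 and 1.01 higher, but 0.22 and 0.14 with normexp, and 0.98 at day 5 after median centring. From day 5 to day 7 Cdkn2a, which encodes the MDM2 inhibitor ARF, was 1.22 higher and Hipk2 differed by -1.33, the only calls of this list. Neither held throughout: Cdkn2a was 0.99 higher with normexp, and Hipk2 differed by -0.90 as the median over its probes.

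Upstream in the stress response stand the kinases and phosphatases of eIF2alpha, listed with the C/EBP and AP-1 partners of ATF4 and CHOP. Of 15, 2 were higher and 2 lower at day 5 against day 0 (median -0.34), where 16.5% and 16.1% of all genes were. At day 7 against day 0, 2 were higher and 1 lower (median -0.44), where 16.2% and 19.1% were. At day 7 against day 5, 1 was higher and 0 lower (median -0.13), where 5.97% and 8.38% were. Jun, an AP-1 subunit, was 18.1-fold higher at day 5 (4.18) and 12.2-fold higher at day 7 (3.61), and Fos was 1.46 higher at day 5. Jdp2, a relative of Atf3, was -2.24 at day 5 and 1.47 higher at day 7 than at day 5, so that its low point fell between the other days. Cebpb was -1.0 and -1.5 from day 0, the former between -0.92 and -0.99 and so no call under 4 alternatives, and Eif2ak2 (the RNA-sensing kinase PKR) was 1.21 higher at day 7. Jun and Atf3, both immediate early genes, thus differed in timing: Jun was already high at day 5, Atf3 not.

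Of the ATF4 targets for amino acid supply, the list to which Asns would belong, 9 of the 17 compared were lower and 0 higher at day 5 against day 0 (median -1.13). At day 7 against day 0, 12 were lower and 0 higher (median -1.37), and at day 7 against day 5, 3 were lower and 0 higher (median -0.24). The others differed by less than 2-fold. Slc1a4, a neutral amino acid carrier, stood above day 0 on both days (0.80 and 0.38), as did Aldh18a1 (0.33) and Phgdh (0.11) at day 7, all under 2-fold. Slc7a11, the cystine carrier, is the 18th of the list and was not well above background on any array. The cystathionine lyase Cth was -2.68 and -2.87 at days 5 and 7, the arginine carrier Slc7a3 -2.31 and -4.01, and the serine synthesis enzyme Psat1 -1.97 and -2.35. Slc7a1, another arginine carrier, was -2.18 at day 5 (-1.5 over all its probes), and Mthfd2, of mitochondrial folate metabolism, -2.25 at day 7. From day 5 to day 7 Slc7a3 (-1.71), Slc7a5 (-1.16) and Pycr1 (-1.12, or -0.97 after median centring) were lower still.

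The tRNA synthetases that ATF4 can induce were lower by smaller amounts. All 12 were below 0 in both comparisons with day 0, where 55% and 57.3% of all genes were. At least 2-fold lower were 4 at day 5 (median -0.87) and 7 at day 7 (median -1.07), counts that ranged from 2 to 6 and from 3 to 8 over the alternatives in processing. Aars was -1.71 and -1.36, Cars -1.36 and -1.72, and Tars -1.0 and -1.34 at days 5 and 7. Mars1 was -1.01 at day 5 and Nars -1.30 at day 7. The day 5 calls of Tars and Mars1 were lost after quantile normalization (-0.66 and -0.88), in the authors' deposited table (-0.66 and -0.85) and with normexp (-0.97 and -0.94), and Tars at day 7 fell just short of 2-fold after quantile normalization (-0.98) and in the deposited table. None of the 12 was called between day 5 and day 7 (median -0.20). Only 7 promoter windows were found for these 12 genes, so part of the list was not searched. The C/EBP-ATF core stood in 5 of the 7 (Aars, Gars, Iars, Tars and Yars), beside 3.97% of all windows and 3 of 18 windows of the amino acid supply list.

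Other targets of ATF4 and CHOP went both ways, with Chac1 among the lower and Vldlr among the higher. Of 16, 2 were higher and 5 lower at day 5 against day 0 (median -0.37), where 16.5% and 16.1% of all genes were. At day 7 against day 0, 4 were higher and 6 lower (median -0.20), where 16.2% and 19.1% were. At day 7 against day 5, 2 were higher and 0 lower (median -0.01), where 5.97% and 8.38% were. Chac1, which degrades glutathione, was -2.79 and -2.70, and Eif4ebp1, a brake on cap-dependent translation, was -1.5 at day 5. Sesn2, a target of p53 and ATF4, was -1.53 at day 7, or -0.73 over all its probes. Car6 was at least 13.7-fold lower at day 5 and at least 16.6-fold lower at day 7, bounds that were 4.41-fold and 4.58-fold with normexp.

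On the higher side, Vldlr, a lipoprotein receptor, was 4.17 and 3.33 above day 0 and held the C/EBP-ATF core, as Chac1 did. Vegfa, the vascular growth factor, was 2.05 and 1.87 higher, or 0.99 and 0.93 over all its probes. Ndrg1 (1.67) and Stc2 (1.19) were higher at day 7 than at day 0, and about as much higher than at day 5 (1.67 and 1.33). The core stood in 4 of the 18 promoter windows of this list (Chac1, Fgf21, Herpud1 and Vldlr), and its part in these differences was not tested.

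The ER chaperones and other genes of the unfolded protein response mostly stayed within 2-fold. Of 22, none was called at day 5 against day 0 (median 0.11, from -0.0021 to 0.34 over the alternatives), 3 were higher and 1 lower at day 7 (median 0.20), and none was called between days 5 and 7 (median 0.12). Dnajc3 (1.1), Edem1 (1.07) and Sel1l (1.03) were just past 2-fold at day 7, and the latter pair were 0.59 and -0.03 over all their probes. Derl3 was -1.08. The ER stress element stood in 9 of the 19 promoter windows found for these 22 genes, the C/EBP-ATF core in 0.

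Heat shock genes are listed as another stress programme for comparison. Of 12, 1 was higher and 6 lower at day 5 against day 0 (median -0.96), 1 higher and 4 lower at day 7 (median -0.80), and 2 higher and 0 lower at day 7 against day 5 (median 0.14). Over the alternatives in processing, with 2-fold kept, the lower counts ran from 4 to 7 at day 5 and from 3 to 4 at day 7. Hspa1a and Hspa1b, near-identical copies whose probes may share signal, were -2.87 and -2.64 at day 5 and -1.75 and -1.85 at day 7. Hspb1 was -2.52 at day 5 and 1.58 higher at day 7 than at day 5. Bag3, a chaperone partner, was 1.94 and 1.59 above day 0. Hspb8 was -1.62 and Hsp90aa1 -1.01 at day 7, the latter between -0.57 and -0.97 and no call under 4 alternatives. Hspa1a, Hspa1b and Hspb1, like Ddit3, were lowest at day 5.

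**Figure D4:**
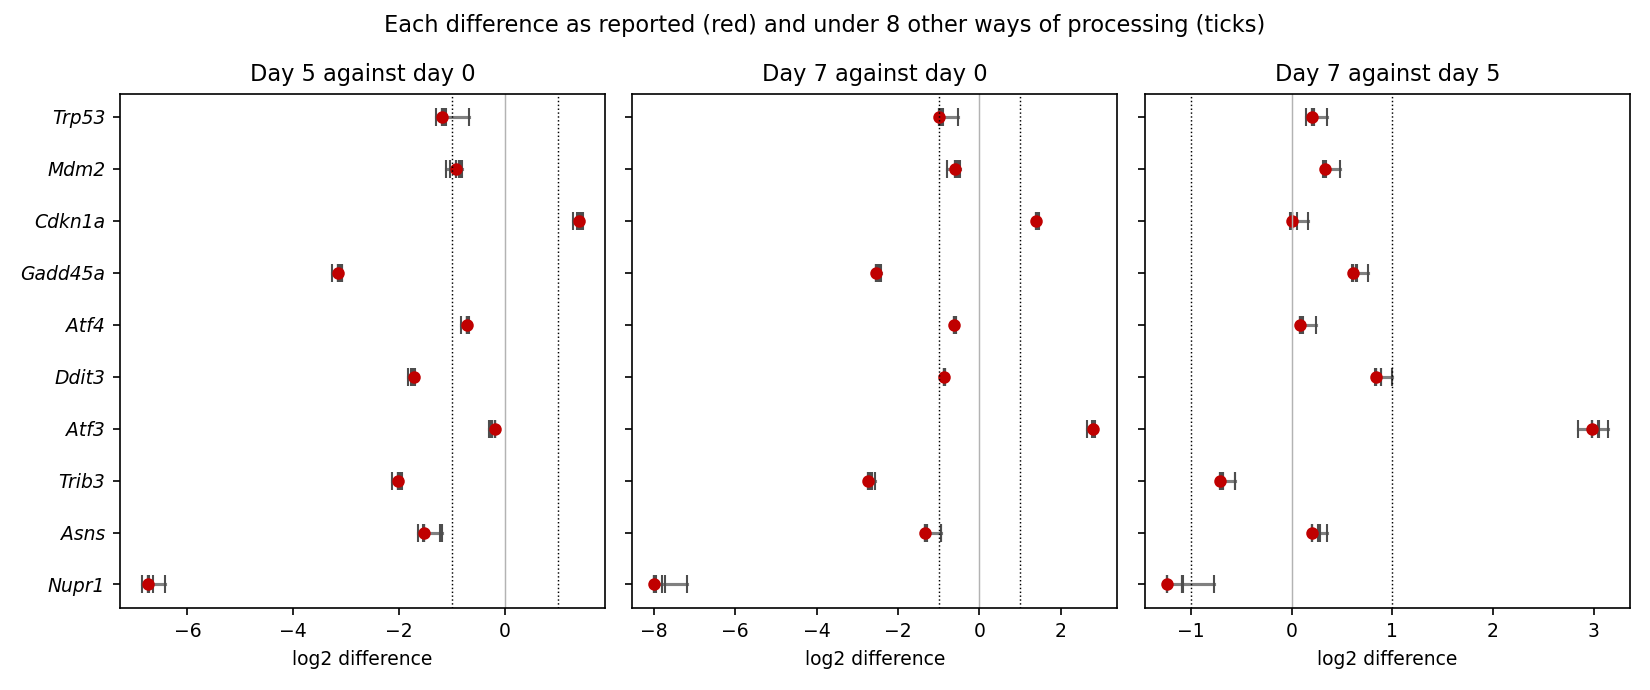
Log2 difference (horizontal axis) of each of the 10 genes between days as reported (red circles) and under 8 other ways of processing (ticks, joined by a grey bar); dotted lines mark 2-fold. The ticks stay on the side of 0 of the circle except for Cdkn1a at day 7 against day 5, whose values run from -0.01 to 0.16; Trp53 and Mdm2 at day 5, Asns at day 7 and Nupr1 between days 5 and 7 have ticks on both sides of 2-fold.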

How the data were processed

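Per the file headers, the authors extracted the 3 arrays, all of 1 slide, with Agilent Feature Extraction 10.5.1.1, and probe positions are those of mm9. The deposited scanner files hold 1 processed signal intensity per spot, already corrected for background. From it log2 minus the array's 75th percentile was computed. Control spots and flagged spots (104 to 149 an array) were left out and spots of a probe averaged. A gene took its probe well above background on most arrays and, among equals, the brightest. A dim side was set to its own value or, where higher, the array's lowest level well above background, giving a bound. Genes compared, 21653, were well above background on at least 1 array. Probes were named by accession (24844), symbol (6045) or as in the file (10285), with RefSeq tables.

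The 10 genes and the lists were chosen with earlier results of these data known. From each list up to 4 genes a direction and comparison are named, by size of difference. A gene that this rule names is not reported here. The authors' deposited value table holds log2 values with a median of 7.17 on each array and the same distribution on all 3; they correlated with log2 processed signal at r of at least 0.9998. How it was normalized is not stated in the labels or headers used here.

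Alternatives were quantile normalization, that table, median centring, normexp (offset 50, limma 3.58.1 in R 4.3.3; the 6 to 36 spots an array with a local background above their signal took the array's median background, a choice made after seeing the data), the median over probes, other filters and flags, and 1.5-fold or 3-fold as the size of a call. Other steps used Python 3.11.15, numpy 2.4.6 and pandas 2.3.3. Probes were not placed in exons or UTRs, since no mm9 annotation was used here.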

Additional observations from a re-analysis of the deposited data

How the results depend on the processing

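When the differences of the 10 genes were recomputed under 8 alternatives, 234 values kept their side of 2-fold, 4 fell short of it and 2 newly passed it (given beside Trp53, Mdm2, Asns and Nupr1). No called difference changed sign. Part of the 234 could not have differed. All 10 genes were well above background on every array, so other filters on dim signals left their values as they were. Keeping flagged spots could alter only Cdkn1a, and the median over probes only Trp53, Mdm2 and Trib3. Counts moved mainly with the size of a call. With 3-fold in place of 2-fold, 0 of the 10 genes were higher at day 5 against day 0, 1 was higher at day 7 against day 0, and 0 were lower at day 7 against day 5; with 1.5-fold, 8 were lower at day 7 against day 0, and 3 were higher and 2 lower at day 7 against day 5. With normexp 0 were lower at day 7 against day 5. Of the 138 list genes, 1.5-fold gave 20 higher and 64 lower at day 5 against day 0, and 20 higher and 10 lower at day 7 against day 5. With 3-fold, 8 were higher and 17 lower at day 5 against day 0, 9 higher and 17 lower at day 7 against day 0, and 4 higher and 2 lower at day 7 against day 5. Calls of some list genes were lost under another scaling, normexp or the median over probes, with values beside the genes named. No paired analysis was possible because each day has 1 array. The number of arrays limits the precision: spot SDs cover printing and scanning on 1 array, and only Trp53, Mdm2 and Cdkn1a have them.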
